A study of Mus musculus with 3 samples.

Results

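The cytosolic ribosomal protein genes were taken from the deposited table by their names: Rpl or Rps and a number, with at most 1 of the letters a, x, l or y and 1 further digit. The rule found 78 of the 15287 listed genes, 31 of the small subunit (Rps) and 47 of the large subunit (Rpl). Of these, 73 encode a standard subunit protein and 5 are related genes named after one, namely Rpl22l1, Rps27l, Rpl7l1, Rpl32l and Rpl6l. The table's own pathway column put 76 of the 78 under the ribosome term and left out Rpl7l1 and Rpl6l. RNA-seq had been run on MC3T3-E1, a clonal line of wild-type preosteoblasts from mouse calvaria, to see how titanium (Ti) particles of the kind shed by implants, and the selenium-containing amino acid selenomethionine (Se-Met), alter these cells. Cells left without treatment gave the CTL library. A day-long exposure (24 h) to particles at 10 µg per cm2 preceded the Ti library, and the same exposure with 5 µM Se-Met added preceded the Ti+Se-Met library. Each condition had 1 library, so no difference below has a replicate check and no p-value is given.

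The values are FPKM, the fragments of a gene scaled to the length of its transcript in kilobases and to the depth of the library. Where 3 values are given in a row without names, they stand for CTL, Ti and Ti+Se-Met in that order. Depth was estimated from the values, since a single fragment in a short gene is worth a fixed step of FPKM, and came to 14050000, 14450000 and 10300000 fragments, the least with Se-Met. The estimate is approximate, because between 42.9% and 57.9% of the low values used lay on such a step, against 13.9% to 18.6% by chance. Differences are given in log2(FPKM + 1), which understates the change of low genes, over the 11137 genes with at least 1 FPKM in at least 1 library. Of the 78 ribosomal genes 77 passed this filter, and Rpl6l did not, with 0.12 FPKM in CTL, 0.22 after Ti and a listed 0 with Se-Met. Fold changes carry a 95% exact conditional binomial interval on the estimated fragments, which covers counting error only, not the spread between cultures or the copies made by PCR. All 11 osteoblast markers looked for were listed, with a summed level between 5550 and 6944 FPKM, of which Spp1 was the highest in the 2 treated libraries. Most of that sum came from Col1a1, Col1a2, Spp1 and Sparc. Only 8 of the 11 passed the filter, and Ibsp, Sp7 and Bglap were below 1 FPKM in every library. Alpl was at 1.51, 0.2 and 0.2 FPKM. Of the markers of macrophages, osteoclasts, adipocytes and muscle, 3 of 7, 5 of 7, 3 of 5 and 5 of 6 were listed, with summed levels of at most 26.8, 29.8, 1.04 and 0.69 FPKM. In bulk RNA a difference in the number of cells of a kind and one in the RNA per cell cannot be told apart.

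Each ribosome joins a small subunit, which reads the mRNA, and a large subunit, which joins amino acids and lets the new chain out through a tunnel. Most cytosolic ribosomal proteins are present in a single copy per ribosome, and growing cells keep their mRNAs among the most abundant. These mRNAs typically begin with a cytosine and a run of pyrimidines, the terminal oligopyrimidine (TOP) start, through which the kinase mTOR and the RNA-binding protein Larp1 control their translation. Osteoblasts, which secrete bone matrix, depend on this machinery for their protein output.

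The start sites of 8 genes on which the results below turn are shown first, to let the TOP starts of genes with high, low and paired responses be compared. Each run holds 15 bases before the annotated start and 15 from it on, read 5′ to 3′ on the strand of the gene from RefSeq on GRCm38.p6, and capitals mark a C followed by at least 4 pyrimidines that begins within 5 bases of the start.
Rpl38, chr11:114668565-114668594, plus strand: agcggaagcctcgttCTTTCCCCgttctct
Rpl14, chr9:120571502-120571531, plus strand: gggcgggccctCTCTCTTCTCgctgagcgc
Rps2, chr17:24720048-24720077, plus strand: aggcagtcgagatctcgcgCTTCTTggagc
Rps16, chr7:28350674-28350703, plus strand: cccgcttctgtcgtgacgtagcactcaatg
Rps27, chr3:90213634-90213663, minus strand: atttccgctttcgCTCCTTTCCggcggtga
Rps27l, chr9:66946071-66946100, plus strand: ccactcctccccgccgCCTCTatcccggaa
Rpl22, chr4:152324421-152324450, plus strand: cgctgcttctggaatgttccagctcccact
Rpl22l1, chr3:28805493-28805522, plus strand: gtgcggcgcaagcccgttCTCTTCCCacgg
Rpl38 and Rpl14, which had the highest and the lowest ratio of Ti+Se-Met to CTL, both had such a run, and Rps16 and Rpl22 had none. A promoter table gave a window for 58 of the 78 genes, and the other 20 have no entry there. A TOP start within 5 bases of the annotated start was present in 29 of the 58 genes (50%), against 23.7% of the other genes that passed the filter and 21.2% of all genes with a window. Exactly at the start it was present in 13 of 58 (22.4%), against 2.76% of the other genes and 3.01% of all. On either strand of the 300-base windows, from 250 bases before the start on, CCGGAAG, the core bound by GABP, was found in 39.7% of the ribosomal genes and 21.5% of the others. AAGATGGC, the core bound by YY1, was found in 10.3% and 5.57%, and TATAAA in 12.1% and 8.34%. Over all genes with a window the shares were 9.93%, 3.19% and 15.7%. A match is a run of letters, and binding was not measured. Where transcription starts in these cells was not measured either. A gene without a run near its annotated start, such as Rps16, can therefore still have a TOP mRNA.

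The ribosomal protein genes were among the highest in every library. Their median level was 853, 1144 and 1136 FPKM, beside a median over all genes of 13.5, 14.3 and 13.6 FPKM. Of the 100 highest genes, 51, 56 and 55 were ribosomal. The 78 genes held 15.4%, 18.8% and 18.5% of the summed FPKM. Because their transcripts are short, their share of the estimated fragments was smaller, at 4.63%, 6.46% and 6.26%.

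The small-subunit genes had the higher median level in each library. It was 999, 1369.88 and 1297 FPKM, beside 749.75, 1043 and 1033 FPKM for the large subunit. Most of the related genes, which had low levels, are in the large-subunit set, and without them the gap was smaller. Over the standard genes the medians were 999.58, 1385 and 1317 FPKM for 30 small-subunit genes. For 43 large-subunit genes they were 849, 1091 and 1064 FPKM. The upper quartile of the 73 standard genes was 1.82-fold, 1.86-fold and 1.93-fold above the lower one, and their highest and lowest were 31.9-fold, 44.2-fold and 49.7-fold apart.

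Rps2, which lines the channel where mRNA enters the small subunit, was the highest in all libraries, at 2305, 4344 and 4074 FPKM. Rpl41, a very short basic peptide with 78 coding bases, followed at 2234, 3952 and 3785 FPKM. Rps26, which touches the mRNA as it leaves and was the third in CTL, stood at 2072, 3067 and 2912 FPKM. In all of these the CTL value was the lowest. Rps18, in the head of the small subunit, stood at 2066, 3085 and 2917 FPKM. Rpl23a, where the signal recognition particle docks at the tunnel exit, stood at 1992, 2591 and 3024 FPKM and was the one of these 5 that was highest in Ti+Se-Met. At the low end, Rps15a was listed at 72.4, 98.3 and 82.0 FPKM and Rpl22 at 90.6, 115 and 103 FPKM, both below every other standard gene in CTL. The related genes Rpl7l1, with 48.3, 91.7 and 58.0 FPKM, and Rpl32l, with 14.1, 23.2 and 17.8 FPKM, were lower still.

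**Figure D1:**
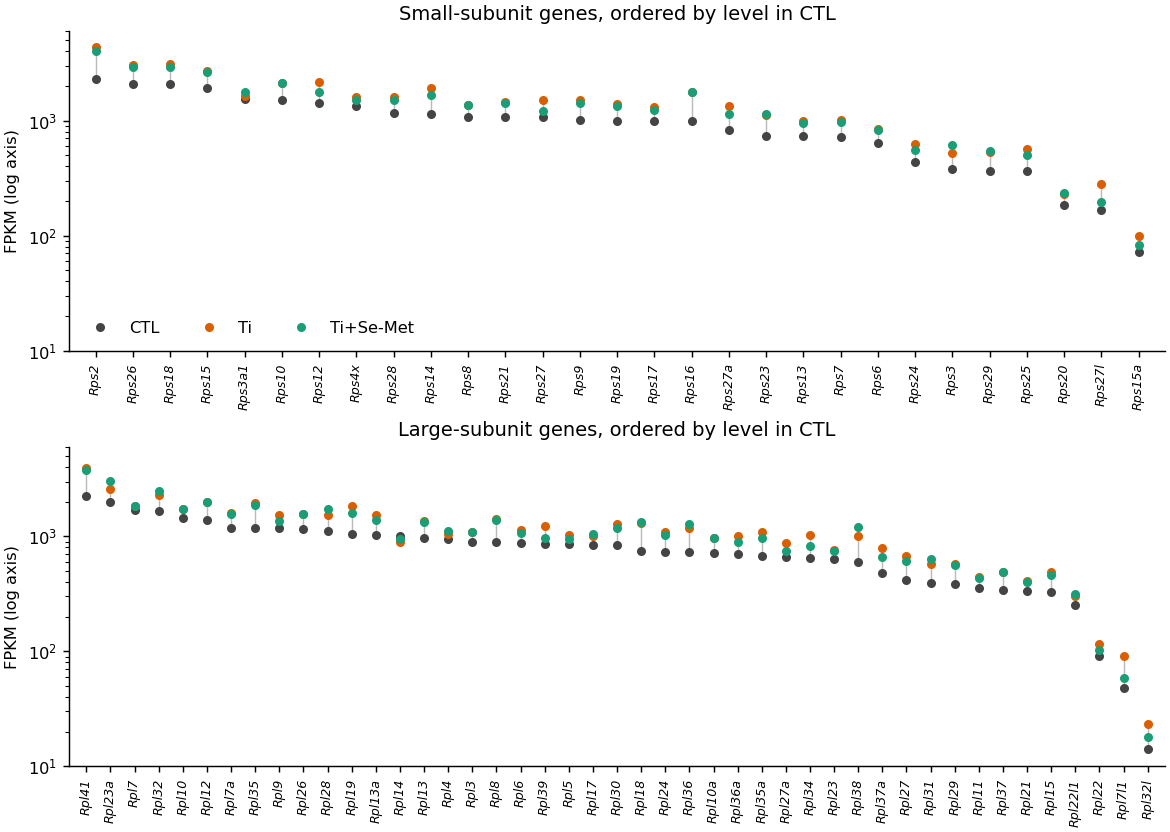
FPKM (log axis) of 29 small-subunit and 45 large-subunit genes that passed the filter, with 1 point per library and a grey line from the lowest to the highest of the 3. The CTL point is the lowest for 73 of the 74 genes plotted, Rpl14 being the exception, and the order of the genes is nearly the same in each library.

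The order of the genes by level was nearly the same across the libraries. Spearman's rho over the 77 genes was 0.964 for the Ti and CTL levels, 0.959 for the Ti+Se-Met and CTL levels and 0.985 for the Ti+Se-Met and Ti levels, as a description across genes that share their lengths and libraries. The largest shift in rank was by 26 places between CTL and Ti and by 13 places between Ti and Ti+Se-Met.

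The longest transcripts had low levels. Lengths were taken from GENCODE M21 through the RefSeq accessions in the table and were found for 76 of the 78 genes. Their median was 777.5 bases, from 345 for Rps27 to 5179 for Rps15a, beside 2918 for all genes that passed. Small-subunit transcripts had a median of 704.5 bases and large-subunit transcripts one of 833, while the coding part had a median of 457.5 bases over both. The 9 genes of 1500 bases or more, Rpl7l1 among them, had a median of 328 FPKM in CTL, against 886 FPKM for the other 67. Fragments were estimated by multiplying FPKM by the length used here, so long genes gain in them by construction. In fragments so estimated, the 9 genes had a median of 8166 in CTL against 7481. Rps15a, at 72.4 FPKM, had 5113 fragments in CTL, and Rps20, a small-subunit head protein at 184 FPKM, had 9174.

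Across the 76 genes, Pearson's r of log2 level with log2 length in CTL was -0.49 and Spearman's rho -0.23, and for fragments they were 0.36 and 0.50, as a description. The rank relation of level and length was thus weaker than the linear one. Shorter annotated transcripts with the full coding sequence exist for some of the 9, at 640 bases for Rps15a, 474 against 2051 for Rpl22, 802 against 1922 for Rpl15 and 899 against 1856 for Rpl21. FPKM divides by the length assigned to a gene, and the length that the authors used is not given in the sources used here. Levels of the long genes relative to the short ones therefore rest on the assigned transcript, whereas the ratio of a gene between libraries does not if its length was kept the same. Their estimated fragments rest on it too, and are too high if the authors used a shorter transcript. The relation of fragments with length therefore cannot show whether the long genes are truly low.

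**Figure D2:**
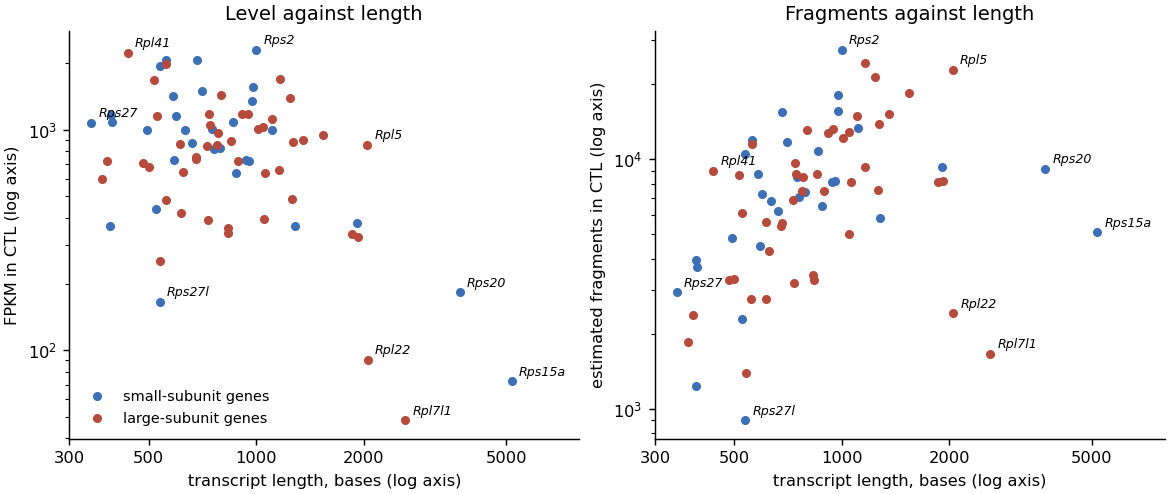
Level in CTL in FPKM (left) and estimated fragments in CTL (right) against transcript length for 76 genes, all axes on a log scale and 1 point per gene, coloured by subunit. Rps15a, Rpl22, Rps20 and Rpl7l1 fall away to the lower right in FPKM, while Rps15a and Rps20 stand at 5113 and 9174 fragments, among the other genes. Fragments were computed from FPKM and this same length, so they rise with it by construction.

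After Ti particles the ribosomal protein genes were higher nearly throughout. Of the 77 genes, 76 were higher in Ti than in CTL, where 55.3% of all genes were. Their median difference was 0.51 on the log2 scale, beside 0.08 for all genes, and 25 of them were at least 1.5-fold higher, beside 15.5% of all genes. None was at least 1.5-fold lower, where 11.3% of all genes were, and none passed 2-fold in either direction, where 7.26% of all genes did. The counting interval of the fold lay above 1 for 75 and below 1 for 1 of the 76 genes that had one. The subunits differed little, with a median of 0.50 over 31 small-subunit genes, all of them higher, and 0.51 over 46 large-subunit genes, of which 45 were higher. At least 1.5-fold higher were 10 of the small subunit and 15 of the large one. In the same comparison 7 of the 8 osteoblast markers that passed the filter were lower, and Spp1 was higher by 1.55, with a median of -0.77 over the 8. The part of these markers in the result was not tested.

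By place in the ribosome, the 5 proteins of the mRNA entry channel and decoding centre (Rps2, Rps3, Rps9, Rps15 and Rps23) were all higher, by 0.47 to 0.91. Of the mRNA exit channel, Rps14, Rps26 and Rps28 were higher by 0.47 to 0.73 and Rps3a1 by 0.07. In the large subunit, 9 proteins around the tunnel exit spanned 0.24 for Rpl17 to 0.81 for Rpl19. Smaller differences were seen for Rpl5 (0.26) and Rpl11 (0.30), which with 5S rRNA form the particle that can bind Mdm2, the inhibitor of p53. Around the peptidyl transferase centre Rpl3 and Rpl10 were at 0.28 and 0.27 and Rpl8 at 0.69, so neighbours in the ribosome did not share 1 value.

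Rps2, at 2305 FPKM in CTL and 4344 in Ti, had the largest difference, 0.91, or 1.88-fold (95% interval 1.86 to 1.91). Rpl7l1, at 48.3 and 91.7 FPKM, was higher by the same 0.91, or 1.90-fold (1.79 to 2.02). Rps16, a head protein of the small subunit, was at 995 and 1782 FPKM, which is 0.84 or 1.79-fold (1.75 to 1.83). Rps2 was the highest of the 77 genes by level and Rpl7l1 the second lowest, so the largest differences were not tied to 1 range of level. Rpl41 followed with 0.82, and Rpl19, which reaches across to the small subunit, with 0.81, at 1051 and 1847 FPKM.

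Rpl14 was the single gene that was lower, with 1005, 893 and 952 FPKM, a difference of -0.17 and a fold of 0.889 (0.867 to 0.913) for Ti against CTL. Its start carried a long TOP run, as did that of Rpl38. Rps3a1, at the mRNA exit of the small subunit, was at 1557 and 1637 FPKM (0.07). Rpl7 was at 1706 and 1846 FPKM (0.11), and Rpl4, which forms part of the tunnel wall, at 947 and 1043 FPKM (0.14). Rpl17 was at 849 and 999.54 FPKM (0.24). All 5 were at or above 849 FPKM in CTL, so counting error was small beside their distance from the median of the genes.

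**Figure D3:**
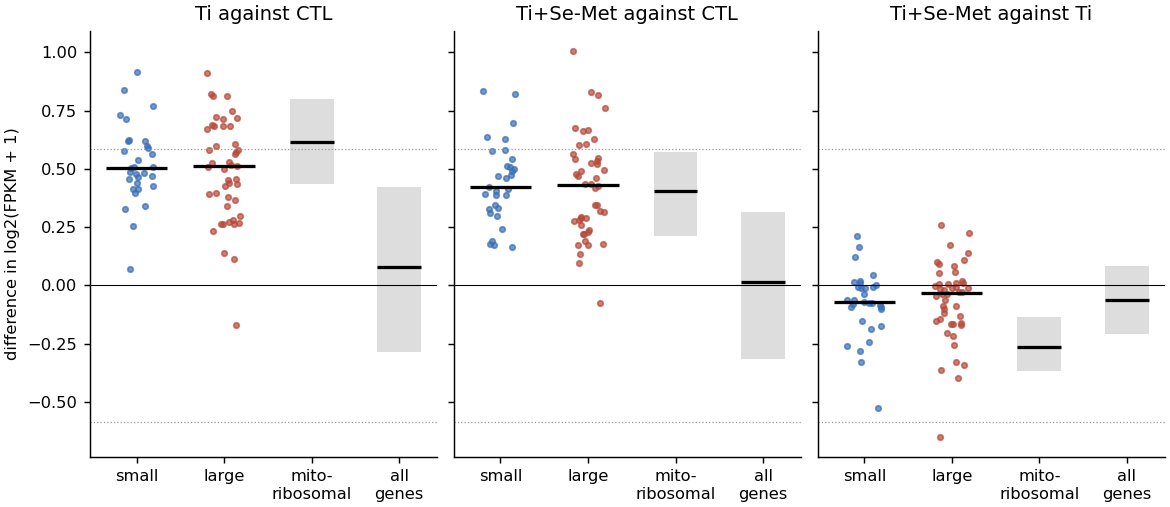
Difference in log2(FPKM + 1) for each of the 3 comparisons, with 1 point per small-subunit (n = 31) and large-subunit (n = 46) gene and a black bar at their median. Grey boxes span the quartiles of 78 mitochondrial ribosomal genes and of all 11137 genes with the median as a bar, and dotted lines mark 1.5-fold, so that the cytosolic genes can be seen above 0 in both comparisons with CTL and about 0 in the third.

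Transcript length moved with the Ti response over the whole table. Among genes outside the ribosomal set, the median difference between Ti and CTL was 0.49 under 500 bases, 0.41 from 500 to 750, 0.42 from 750 to 1000, 0.34 from 1000 to 1500, 0.18 from 1500 to 2500, 0.07 from 2500 to 4000 and -0.12 from 4000 bases on. Set against other genes of its own length class, a ribosomal gene was higher by a median of only 0.11, with 59 of 76 above and 17 below the median of its class. Against other genes of the class with a mean of at least 100 FPKM, the median excess was 0.05, with 47 above and 29 below. The 9 genes under 500 bases, among them Rpl38, Rpl41 and Rps27, had a median of 0.51 against 0.49 for the 42 other genes of that class. Most of the distance between the ribosomal genes and the whole table was thus also found in short, highly expressed genes of other kinds. Of the 3 genes above 2500 bases, Rpl7l1 at 0.91 and Rps15a at 0.44 were above the upper quartile of their classes (0.39 and 0.18), and Rps20 at 0.33 was between the median and the upper quartile. The class of Rps15a rests on its assigned transcript. With its annotated transcript of 640 bases, it would lie between the median (0.41) and the upper quartile (0.65) of the class from 500 to 750. Over 76 genes Pearson's r of the difference with log2 length was -0.24, and over 10843 other genes -0.29, as a description. The part of RNA length, quality or library preparation in this pattern was not tested.

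**Figure D4:**
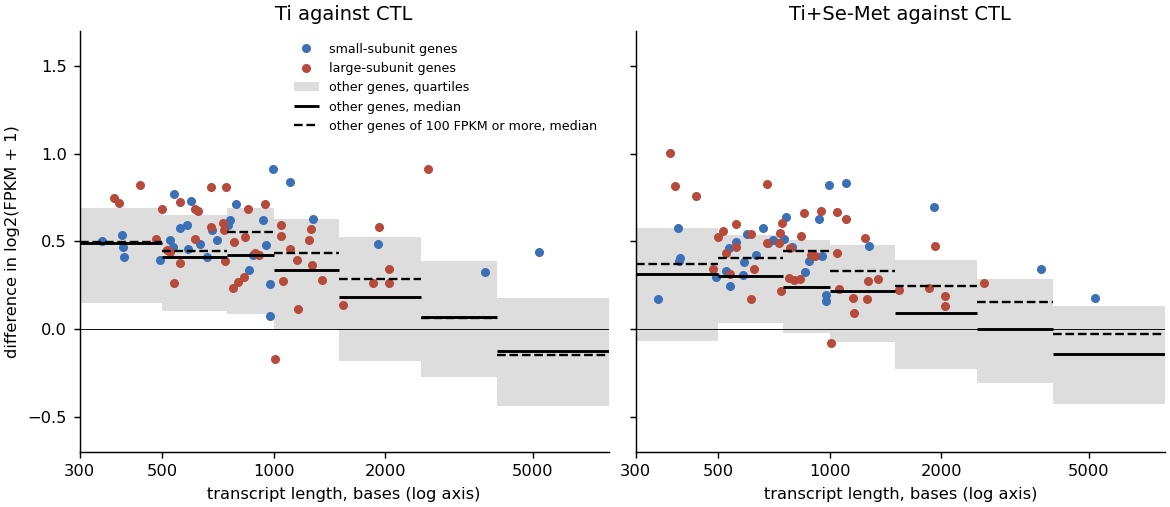
Difference in log2(FPKM + 1) against transcript length in bases (log axis) for Ti against CTL (left) and Ti+Se-Met against CTL (right), with 1 point per ribosomal gene. Steps give the median of the other genes in 7 length classes, grey the quartiles and dashes the median of those with a mean of at least 100 FPKM. The points lie mostly around the dashed steps below 1500 bases, and the steps go down from 0.49 to -0.12 in the left panel.

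The higher values also rested in part on the scale of the libraries. The summed FPKM was 448285, 526017 and 514568. After rescaling each library to the same sum (TPM), the median of all genes for Ti against CTL moved from 0.08 to -0.13 and that of the ribosomal genes from 0.51 to 0.28, so that the distance between them was 0.40. With TPM, 73 genes were higher and 4 lower, and 4 in place of 25 (5.19% of the 77) were at least 1.5-fold higher. Of all genes 7.51% were, so that on this scale the count showed no excess. At least 1.5-fold lower with TPM were 0, where 19.6% of all genes were. By the median of ratios 18 (23.4%) were at least 1.5-fold higher, beside 13.6% of all genes. By the upper quartile 15 (19.5%) were, beside 11.2%.

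In Ti+Se-Met the ribosomal genes were also above CTL. Again 76 of 77 were higher, where 51% of all genes were, and Rpl14 was the exception. The median difference was 0.42 beside 0.01 for all genes, and the counting interval lay above 1 for 75 and below 1 for 1 of 76 genes. At least 1.5-fold higher were 15 genes, beside 10.4% of all genes, and 0 were 1.5-fold lower, beside 11.7%. Rpl38 alone passed 2-fold, which 5.96% of all genes did. The medians of the subunits were 0.42 for the small and 0.43 for the large one. Of the osteoblast markers 7 of 8 were lower here too, and Spp1 was higher by 1.88, with a median of -0.31 over the 8. With TPM, 66 genes were higher and 11 lower, and 5 (6.49%) were at least 1.5-fold higher, near the 5.85% of all genes. By the median of ratios 17 (22.1%) were at least 1.5-fold higher, beside 11.2% of all genes. By the upper quartile 10 (13.0%) were, beside 8.38%. This comparison uses the same CTL library as the one above, so the pair do not stand apart from each other, and 76 of the 77 genes were lowest in CTL of the 3 libraries.

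Against other genes of its own length class, a ribosomal gene exceeded its CTL value after Ti+Se-Met by a median of 0.18 more, with 65 above and 11 below. Against the highly expressed ones among them the excess was 0.04, with 44 above and 32 below.

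Rpl38, which mouse embryos need for the translation of Hox mRNAs, had the largest difference, at 598, 1005 and 1203 FPKM. This was 1.01 on the log2 scale for Ti+Se-Met against CTL, or 2.01-fold (1.90 to 2.14). Its transcript of 371 bases gave 1856 fragments in CTL, fewer than most of the genes. Rps16 followed with 995, 1782 and 1773 FPKM (0.83), and Rpl18, with 749.75, 1316 and 1333 FPKM, had the same difference. Between Ti and Ti+Se-Met these genes differed by -0.0067 and 0.02. Rps2 had 0.82, and Rpl36, at 725, 1192 and 1279 FPKM, also 0.82.

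The smallest differences after Rpl14 (-0.08) were those of Rpl7 (0.09), Rpl5 (0.13), the X-linked Rps4x (0.16) and Rpl39 (0.17). Rpl5 was at 857, 1029 and 940.12 FPKM, and Rps4x at 1351, 1613 and 1512 FPKM. Rpl39, at the tunnel exit, stood at 864, 1236 and 974 FPKM, so its Ti value was apart from both others.

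Ti+Se-Met and Ti were close to each other for most ribosomal genes. The median difference was -0.05, beside -0.06 for all genes, and 22 genes were higher and 55 lower in Ti+Se-Met, where 38.5% of all genes were higher. This split depended on the scale of the libraries, with 35 higher and 42 lower after TPM, 42 and 35 after scaling by the median of ratios, and 38 and 39 by the upper quartile. The distance of the ribosomal median from that of all genes was 0.02 in each of these. No gene was at least 1.5-fold higher, beside 0.844% of all genes, 1 gene, Rpl7l1, was at least 1.5-fold lower, beside 1.28%, and 0 passed 2-fold, beside 0.224%. The counting interval included 1 for 25 genes and lay above it for 12 and below it for 39. The median was -0.07 for the small and -0.03 for the large subunit. Of the 3 libraries Ti was the highest for 55 genes and Ti+Se-Met for 21.

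The 5 lowest ratios of Ti+Se-Met to Ti held 3 of the 5 related genes. Rpl7l1 went from 91.7 FPKM in Ti to 58.0 in Ti+Se-Met (-0.65, fold 0.633, 0.594 to 0.673), and Rps27l from 284 to 197 FPKM (-0.53, fold 0.694, 0.636 to 0.756). Rpl32l, at 23.2 and 17.8 FPKM, was at -0.36. Among the standard genes, Rpl39 was one of the lowest (-0.34). In all of these the Ti+Se-Met value lay between those of CTL and Ti, nearer to CTL. They were chosen by this ratio, and for 56 of the 77 genes the value lay between CTL and Ti.

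The highest ratios of Ti+Se-Met to Ti were small. Rpl38 had 0.26, or 1.20-fold (1.14 to 1.26), Rpl23a had 0.22, Rps3 0.21 and Rpl28 0.17. Rps3, which also lines the mRNA entry channel, stood at 376, 527 and 610.35 FPKM. Rpl28 was at 1115, 1531 and 1725 FPKM. All of these genes were lowest in CTL, as were 76 of the 77, and their choice by this ratio put Ti+Se-Met above Ti.

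The related genes were compared with the gene each is named after. Rpl7l1, whose coding sequence is 55.4% identical to that of Rpl7, made up 2.75%, 4.73% and 3.09% of the summed FPKM of the pair. Rpl7 itself was nearly level, at 1706, 1846 and 1821 FPKM, so the pair diverged in Ti, by 0.80 on the log2 scale. Rps27l, a known target of p53 that is 76.1% identical to Rps27, was at 166, 284 and 197 FPKM beside 1075, 1523 and 1212 FPKM for Rps27. Both genes of that pair were highest in Ti, and the share of Rps27l was 13.4%, 15.7% and 14.0%.

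Rpl22l1 was listed above its namesake Rpl22, whose FPKM would be lowered by the long transcript if the authors used it. Rpl22l1, which Rpl22 is known to hold down in mouse, was at 255, 306 and 317 FPKM beside 90.6, 115 and 103 FPKM for Rpl22, a share of 73.8%, 72.7% and 75.4%. In fragments estimated with the lengths used here, the order in CTL was the other way round, with 1389 for Rpl22l1 and 2419 for Rpl22. That order rests on the long transcript of Rpl22. The coding sequences are 67.7% identical. Both were lowest in CTL, and their difference between Ti and CTL, 0.26 for Rpl22l1 and 0.34 for Rpl22, was below the median of the ribosomal genes.

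Rpl36al, which lies outside the name rule and is 87.9% identical to Rpl36a, was at 190.42, 302 and 273 FPKM beside 705, 1005 and 895 FPKM for Rpl36a, a share of 21.3%, 23.1% and 23.4%. Rpl32l was at 0.834%, 1.00% and 0.716% of its sum with Rpl32, which stood at 1674, 2289.63 and 2472 FPKM. Rps15a-ps5, named as a pseudogene of Rps15a and looked at because its value was high, was at 93.5, 141 and 103 FPKM beside 72.4, 98.3 and 82.0 FPKM for Rps15a. Ribosomal protein genes have many near-identical copies, and how reads that match several of them were counted is not given in the sources used here, so the levels within these pairs are uncertain. Rpl3l, Rpl10l, Rpl39l and Rps4l were looked for as well but were not among the listed genes, so they have no value here.

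**Figure D5:**
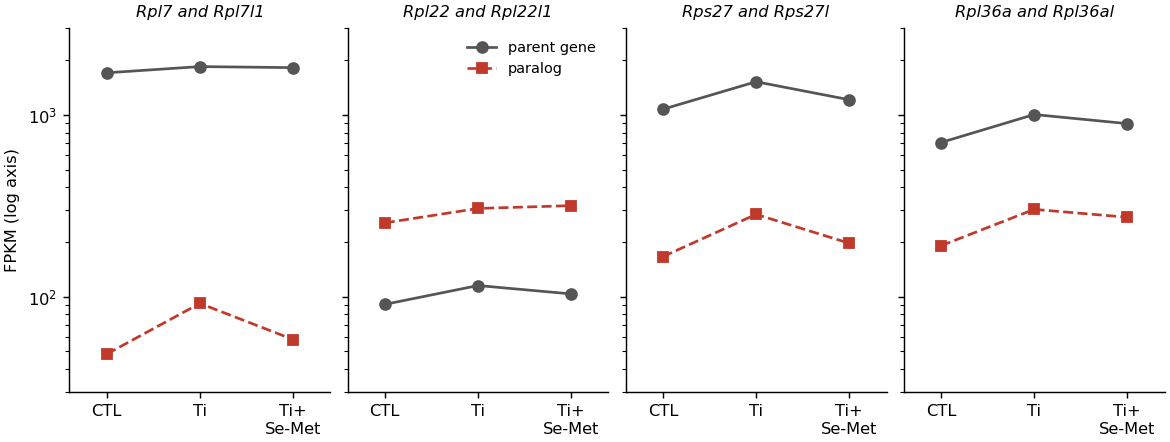
FPKM (log axis) of 4 genes (grey circles) and their related genes (red squares) in CTL, Ti and Ti+Se-Met, 1 library each, joined by lines. Rpl7l1 and Rps27l peak in Ti at 91.7 and 284 FPKM, Rpl7 is nearly flat, and Rpl22l1 lies above Rpl22 in all 3 libraries.

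The ribosomal genes that carry other names were also higher after Ti. Of 9 names looked for, 8 were listed, Gnb2l1 being an older name of Rack1. All 8 were higher in Ti than in CTL, by 0.56 to 0.86, where 55.3% of all genes were higher. At least 1.5-fold higher were 6, where 15.5% of all genes were. Rplp0, the base of the stalk that recruits elongation factors, was at 1834, 3328 and 3035 FPKM (0.86 for Ti against CTL). The stalk proteins Rplp1, at 1135, 2047 and 1841 FPKM, and Rplp2, at 943, 1583 and 1461 FPKM, had 0.85 and 0.75. All of these stalk genes were lowest in CTL and highest in Ti. Rpsa, a small-subunit protein, was at 714, 1171 and 1153 FPKM (0.71), and Rack1, the signalling scaffold on the small subunit, at 979, 1646 and 1402 FPKM (0.75). Fau, which encodes a small-subunit protein fused to a ubiquitin-like protein, was at 1093, 1609 and 1607 FPKM (0.56). Against Ti, all 8 were lower in Ti+Se-Met, by less than 1.5-fold, from -0.23 for Rack1 to -0.0016 for Fau. Of all genes 38.5% were higher in that comparison. These 8 were not looked at on the other scales of the libraries, nor set against genes of their own length class.

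The ribosomal proteins of the mitochondrion, a separate set of 78 genes that all passed the filter, had a median of 0.61 for Ti against CTL. Of these, 75 were higher, where 55.3% of all genes were, and 44 (56.4%) were at least 1.5-fold higher, where 15.5% of all genes were. In the length classes under 1500 bases, 28.0% to 35.7% of the genes outside the cytosolic ribosomal set were. The mitochondrial set was not compared within its own length classes. The mitochondrial genes ranged from Mrpl42 (-0.27) to Mrps18b (1.52). For Ti+Se-Met against CTL their median was 0.41, with 17 (21.8%) at least 1.5-fold higher, where 10.4% of all genes were. For Ti+Se-Met against Ti it was -0.26, with 71 of 78 lower, where the cytosolic set had -0.05 and 55 of 77. The median of all genes was -0.06, and 38.5% of them were higher. This set was not looked at on the other scales of the libraries in any of the comparisons.

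Translation factors were looked at from lists drawn up for this purpose. Of 10 elongation factors and other genes with TOP mRNAs, 8 were higher in Ti, with a median of 0.46 and 3 at least 1.5-fold higher, from Hnrnpa1 (-0.11) to Eef1g (0.87). Of 29 initiation factors, 26 were higher, with a median of 0.52, 12 past 1.5-fold upwards and 1 past it downwards, from Eif4a2 (-0.70) to Eif3g (1.12). Of 15 genes of the mTOR pathway and TOP mRNA control, 11 were higher, with a median of 0.16, near the 0.08 of all genes. At least 1.5-fold higher were 2 (13.3%, where 15.5% of all genes were), and 1 was 1.5-fold lower. The ends of that list were Rps6kb1 (-0.71), the kinase that phosphorylates Rps6, and Eif4ebp1 (1.68), a repressor of cap-dependent translation that mTOR inactivates. Rps6 itself was at 636, 855 and 834 FPKM (0.43 for Ti against CTL).

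For Ti+Se-Met against CTL the medians were 0.44, 0.43 and 0.01, with 4 of 10, 10 of 29 and 1 of 15 at least 1.5-fold higher and 0, 0 and 1 lower, beside 10.4% and 11.7% of all genes. The last list, with 6.67% higher, was thus below the share of all genes. The smallest and largest ratios were those of Npm1 (0.09) and Tpt1 (0.80), of Eif4a2 (-0.51) and Eif3k (0.87), and of Rps6kb1 (-0.76) and Eif4ebp1 (1.40). For Ti+Se-Met against Ti the medians were -0.0038, -0.13 and -0.12. In that comparison 0 genes of these lists passed 1.5-fold, where only 0.844% of all genes were higher and 1.28% lower by as much. The ends were Eef1g (-0.19) and Hnrnpa1 (0.33), Eif6 (-0.45) and Eif4a2 (0.19), and Akt1s1 (-0.36) and Rheb (0.03).

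The TOP starts shown above went with small differences only. The 29 genes with such a start within 5 bases had a median of 0.57 for Ti against CTL and the 29 without one 0.47, with median transcript lengths of 747.5 and 833 bases. For the 13 genes with a TOP exactly at the start and the 45 without one the medians were both 0.51. For Ti+Se-Met against CTL the medians with and without a TOP start within 5 bases were 0.48 and 0.39, and for Ti+Se-Met against Ti -0.08 and -0.06. Among other genes the median for Ti against CTL was 0.08 both with and without such a start. These groups were split by the annotated start, not by a measured one. They therefore cannot show how genes with and without a TOP mRNA differ.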

How the data were processed

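RNA-seq of MC3T3-E1 cells gave 3 libraries with 1 library per condition. The authors discarded low-quality reads, used HISAT2 for alignment and deposited 1 FPKM value per gene and library, with 2 decimals. The submitters' processing notes name HISAT2, StringTie, SAMtools and the build mm9, the methods name HTSeq for counting, and how FPKM was made is not given in the sources used here. Columns were paired with libraries by name, with 0 left over, and no count model was fitted to FPKM.

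Differences in log2(FPKM + 1) were computed for genes with at least 1 FPKM in at least 1 library, with thresholds of 1.5-fold and 2-fold (Python 3.11.15, numpy 2.4.6, pandas 2.3.3, scipy 1.17.1, Biopython 1.88, matplotlib 3.10.9). Transcript lengths came from GENCODE M21 on GRCm38 through RefSeq accessions and were found for 95.3% of genes. Depth was estimated from 1-fragment steps in single-transcript genes between 350 and 1000 bases long, each taken as 150 bases shorter. Identity is the share of identical bases in a global alignment over the longer coding sequence. The depth, ratio and interval steps were tested on simulated data.

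Genes named are both genes of each related pair, the 5 highest and 5 lowest by level in CTL, the 5 highest and 5 lowest ratios of each comparison among genes with a mean of at least 5 FPKM, the ribosomal genes with other names, and the ends of each list. Some genes that fall under these rules are not reported here. Genes named by place in the ribosome or by transcript length, and Rps15a-ps5, Rpl32l as a pair and Rps6, were added later. The members and lists were chosen with earlier results of these data known. The alternatives were scaling to TPM, by the upper quartile or by the median of ratios, a mean of at least 5 FPKM or no filter, pseudocounts of 0.1 and 5, the 73 standard genes only, transcripts of at least 500 bases, a 2-fold threshold and, chosen after seeing the data, other genes of the same length class as reference.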

Additional observations from a re-analysis of the deposited data

How the results depend on the processing

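With 1 library per condition nothing could be left out, and depth limited mainly Rpl6l, which rested on few fragments. Rpl32l and Rpl6l had no transcript length and so no counting interval. No paired analysis was possible because the 3 conditions held 1 library apiece. The distance of the ribosomal median from that of all genes was 0.43 in the first comparison (Ti against CTL), 0.41 in the second (Ti+Se-Met against CTL) and 0.02 in the third (Ti+Se-Met against Ti). It was 0.50 in the first without the filter, 0.38 and 0.36 in the first and second with a mean of at least 5 FPKM, and -0.025 in the third without the filter, where the sign turned. Against other genes of the own length class, an alternative chosen after seeing the data, it was 0.11, 0.18 and 0.072, and against those of at least 100 FPKM 0.048 and 0.042 in the first and second. The small-subunit less the large-subunit median was -0.0075, -0.0085 and -0.037. With transcripts of at least 500 bases it turned to 0.050 and 0.039 in the first and second, and against highly expressed genes of the own length class to 0.042 in the first. The number of genes past 1.5-fold was 25, 15 and 1. All but Rpl7l1 in the last were higher. It was 4 and 15 for Ti against CTL with TPM and upper-quartile scaling, where 7.51% and 11.2% of all genes were higher by as much, 5 for Ti+Se-Met against CTL with TPM, beside 5.85%, and 0 for Ti+Se-Met against Ti with the 73 standard genes, of which Rpl7l1 is not one. Past 2-fold it was 0, 1 and 0. The cause of these moves was not tested where the alternative does not itself remove genes. The other 77 values moved by less than the counting error of a typical gene or, for numbers of genes, by at most 1.5 times.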
